A study of Mus musculus with 12 samples.

Results

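The mouse genes described here are 30 genes of cholesterol and fatty acid synthesis that are under the control of the SREBP transcription factors. They were taken from a list of such genes and kept where both deposited tables hold them, which all 30 did, out of 41255 genes in the mRNA table and 10080 in the table of ribosome-protected fragments (RPF). Of the 30, 7 act in the mevalonate steps, 11 lead from squalene to cholesterol, 4 regulate the pathway or carry sterol, and 8 make, elongate or desaturate fatty acids. The study compared ribosomes that hold a leukemia-associated mutant of the protein RPL10 with ribosomes that hold the normal protein. Ba/F3, an interleukin-3-dependent line of mouse lymphoid cells, was given human RPL10 by retrovirus, either wild type (WT) or with the R98S change, while the cells' own Rpl10 was knocked down with an shRNA in both groups. Monoclonal cultures were grown from these cells, 3 with R98S (clones 11, 13 and 35) and 3 with WT (clones 28, 29 and 36), so each replicate is 1 clone. All cultures received cycloheximide, a blocker of translation elongation, at 100 µg/ml for 5 min, and each gave 1 mRNA library and 1 RPF library, the latter merged from 3 technical replicates.

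Cells build cholesterol from acetyl-CoA through mevalonate, farnesyl diphosphate and squalene, and build fatty acids from the same acetyl-CoA through malonyl-CoA. The SREBP proteins, encoded by Srebf1 and Srebf2, sit in the endoplasmic reticulum membrane and are held there by INSIG proteins when sterols are plentiful. When sterols run low they move to the Golgi, are cut, and enter the nucleus to switch on the genes of both pathways, often together with the factor NF-Y.

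Promoters are shown for the genes whose mRNA passed the test described with the results and whose sequence was at hand. The RefSeq table, on build GRCm38.p6, held 28 promoters for 23 of the 30 genes, each running from 250 bases before to 50 bases after the start of transcription; Fads1, Fdft1, Fdps, Scd1, Scd2, Sqle and Stard4 had no entry. Capitals mark matches, on either strand, to the SREBP motif TCACNCCAC and to the NF-Y box CCAAT, which reads ATTGG when it lies on the other strand. The 3 sequences below run 5′ to 3′ on the strand of the gene.
Hmgcs1 (chr13:119690101-119690400, plus strand): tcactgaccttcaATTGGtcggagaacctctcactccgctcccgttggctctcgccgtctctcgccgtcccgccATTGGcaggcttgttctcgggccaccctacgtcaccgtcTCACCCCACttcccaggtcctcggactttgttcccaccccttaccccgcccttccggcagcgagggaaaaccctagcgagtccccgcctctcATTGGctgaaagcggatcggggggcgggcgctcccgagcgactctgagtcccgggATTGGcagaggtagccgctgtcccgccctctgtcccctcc
Idi1 (chr13:8885356-8885655, plus strand): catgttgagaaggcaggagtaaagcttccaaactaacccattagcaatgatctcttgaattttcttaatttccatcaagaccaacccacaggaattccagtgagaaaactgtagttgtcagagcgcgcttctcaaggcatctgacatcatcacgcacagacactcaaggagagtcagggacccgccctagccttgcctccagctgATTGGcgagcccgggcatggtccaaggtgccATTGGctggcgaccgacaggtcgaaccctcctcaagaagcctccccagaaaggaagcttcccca
Msmo1 (chr8:64733529-64733828, minus strand): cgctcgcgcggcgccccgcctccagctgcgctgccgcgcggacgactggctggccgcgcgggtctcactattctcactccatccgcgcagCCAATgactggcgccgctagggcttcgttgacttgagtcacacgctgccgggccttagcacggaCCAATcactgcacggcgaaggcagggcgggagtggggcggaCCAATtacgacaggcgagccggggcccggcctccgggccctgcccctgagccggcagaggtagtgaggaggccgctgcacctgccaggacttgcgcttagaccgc

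Hmgcs1 held the SREBP motif 137 bases before the start, between NF-Y boxes at 237, 176 and 45 bases before it, with another 10 bases after it. Idi1 held NF-Y boxes at 45 and 14 bases before the start. Msmo1 held NF-Y boxes at 160, 96 and 55 bases before the start. Across the 28 promoters, 1 (3.57%) held the SREBP motif, beside 408 of all 32851 promoters in the table (1.24%). The NF-Y box was in 20 of the 28 (71.4%), beside 12289 of 32851 (37.4%), and 3 or more copies were in 6 (21.4%), beside 3.37% of all. A match is a string of letters and not a measured binding site, and a promoter without one lacks only these letters in this window.

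The mRNA libraries held 22178094, 21217231 and 20576796 counted reads for R98S clones 11, 13 and 35, and 6617457, 21620993 and 23136595 for WT clones 28, 29 and 36. The RPF libraries held 10883086, 6827929 and 3477723 reads for the R98S clones and 7162305, 5619539 and 4611390 for the WT clones, in the same order. WT clone 28 stood apart in the depth of its mRNA. Its mRNA library was the shallowest, so that 1 read was worth 2.69 normalized counts there and 0.784 to 0.860 in the other mRNA libraries. Over the 30 genes, mRNA and RPF values of each clone were taken as the distance from the mean of the 3 clones of its genotype. Their Pearson correlation across genes was -0.231 for WT clone 28, 0.283 for WT clone 36 and 0.545 to 0.836 for the other clones. Clones of a genotype share that mean, so their correlations depend on one another. Genes are not independent replicates, so this is a description. The lowest read number of any of the 30 genes in any library was 14, for Scd1 in the mRNA of WT clone 28.

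Markers were read to check the cells. Of the genes of early B cells read here, Cd79a (mean of 956 normalized counts in mRNA) and Cd79b (343) were present, while Vpreb1, Igll1, Ebf1 and Blnk had at most 4 reads each over all mRNA libraries together, so defining genes of the early B cell were at or near 0. Cd79b was not called in limma with all clones (1.00, adjusted p = 0.112, in mRNA and 1.01, adjusted p = 0.132, in RPF) but was called higher in both assays in DESeq2, with library weights, without R98S clone 35 and without WT clone 28. With library weights Cd79a was called higher in mRNA. All 4 genes of interleukin-3 reception and leukocytes were present, with Csf2rb, the shared beta chain of the receptor, the most abundant at a mean of 46671 normalized counts. The 4 genes summed to 120902, 99455 and 120876 normalized counts of mRNA in the R98S clones and to 46935, 92744 and 63429 in the WT clones. Csf2rb2, the mouse-specific interleukin-3 receptor beta chain, rose in limma in both assays, with log2 fold changes of 0.95 in mRNA (adjusted p = 0.0424) and 1.08 in RPF (adjusted p = 0.00886), and Csf2rb rose in RPF by 1.02 (adjusted p = 0.0392). The leukocyte gene Ptprc fell in RPF, with -1.19 (adjusted p = 0.0157) in limma. Its mRNA was not called in limma with all clones (-0.80, adjusted p = 0.175) but was called lower in DESeq2 (0.0338), with library weights (0.0195), with chromosome medians removed (0.0887) and without WT clone 28 (0.0252). The mRNA call of Csf2rb2 was lost without R98S clone 11 (limma, adjusted p = 0.179), R98S clone 35 (0.126) or WT clone 36 (0.121), and the RPF call of Csf2rb without R98S clone 11 (0.135) or WT clone 36 (0.118). The alpha chain Il3ra was not called in limma in either assay (-0.22, adjusted p = 0.691, in mRNA and 0.29, adjusted p = 0.377, in RPF), nor was the mRNA of Csf2rb with all clones (0.93, adjusted p = 0.121), which was called higher in DESeq2 (0.0355), with library weights (0.0121) and without WT clone 29 (0.0246). The part of the called receptor genes in the results for lipid genes was not tested.

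Markers of tissues that make much lipid were scarce. Of 5 hepatocyte genes, Ttr and Serpina1a had no read in any mRNA library, Alb had 1 read and Apoa1 2 reads in all, and the most abundant, Apoa2, had a mean of 9.06 normalized counts; the 5 summed to 10.3, 9.83 and 12.9 normalized counts in the R98S clones and 2.69, 14.8 and 6.27 in the WT clones. Of 5 adipocyte genes, Adipoq, Fabp4 and Lep had no read and Cfd had 1, and the 5 summed to 91.3, 138 and 98.9 normalized counts in the R98S clones and 21.5, 27.2 and 56.4 in the WT clones, nearly all from Plin1. Plin1, which coats lipid droplets, had 91.3, 138 and 98.9 in the R98S clones and 21.5, 27.2 and 55.6 in the WT clones in mRNA, and was called higher in limma with 1.72 (adjusted p = 0.0476) in mRNA and 1.27 (adjusted p = 0.0886) in RPF. Its mRNA call was lost without R98S clone 11 (0.127), R98S clone 13 (0.215) or WT clone 29 (0.112). Its RPF call in limma was lost without R98S clone 11 (adjusted p = 0.224), R98S clone 13 (0.329), WT clone 28 (0.121), WT clone 29 (0.170) or WT clone 36 (0.199). It was also lost with a filter at a mean of 50.0 and with chromosome medians removed. The part of Plin1 in the results for lipid genes was not tested. Of 5 macrophage genes, Marco had no read, Csf1r had 6 reads, Adgre1 was not listed, and Cd68 was the most abundant at a mean of 129. Lyz2 had 0, 0 and 1.72 normalized counts in the R98S clones and 0, 24.7 and 47.0 in the WT clones; it was not called in limma with all clones (-2.94, adjusted p = 0.289) but was called lower in DESeq2 (adjusted p = 0.0108), in edgeR (0.0490), with library weights (0.00480) and without WT clone 28 (0.0107). Its part in the results for lipid genes was not tested. The list summed to 99.2, 145 and 132 in the R98S clones and 118, 186 and 172 in the WT clones.

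The first question is which of the lipid synthesis genes differ in mRNA between R98S and WT clones, and the next is whether RPF differ alike. Both were tested with limma on log2 normalized counts over all genes with a mean of at least 10, and a gene was called at a Benjamini-Hochberg adjusted p under 0.1; all 30 genes passed the filter in both assays. In mRNA, 6 of 30 were lower in R98S (20.0%), beside 443 of 11344 genes tested (3.91%), and 0 were higher, beside 3.03% of all genes. DESeq2 and edgeR also gave 0 higher. In limma 14 of the 30 had an unadjusted p under 0.05, beside 2036 of all 11344 genes, and all 14 were lower. All 3 R98S values lay below all 3 WT values for 11 of the 30 genes, beside 11.6% of all genes, and above them for 0, beside 11.9%. The fold change was below 0 for 24 of the 30 genes, with a median of -0.47 on the log2 scale, while the median of all genes tested was 0.013. With 3 clones against 3, the smallest p that an exact two-sided permutation test can give is 0.1. In bulk cultures, fewer cells of a type and less RNA per cell cannot be told apart.

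In RPF, 6 of 30 genes were lower in R98S (20.0%), beside 443 of 9580 genes tested (4.62%), and 0 were higher, beside 3.13%. DESeq2 and edgeR also gave 0 higher. In limma 10 of the 30 had an unadjusted p under 0.05, beside 1943 of all 9580 genes, and all 10 were lower. The R98S and WT values did not overlap for 10 genes, all lower, beside 12.8% of all genes lower and 12.5% higher. The fold change was below 0 for 27 of 30 genes, with a median of -0.45, beside 0.014 over all genes. The median of the 30 genes was -0.71 without R98S clone 35 and -0.31 without R98S clone 11. The 6 genes called in mRNA were Hmgcs1, Idi1, Fdps, Sqle, Msmo1 and Fads1, and the 6 called in RPF were Hmgcs1, Fdps, Fdft1, Sqle, Msmo1 and Fads1. Thus 5 genes were called in both assays, which is 83.3% of each list. The assays share the same clones, and the share of all genes called in both is not given here, so this overlap has no background value.

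The number of calls depended on single clones. In mRNA, 1 gene of the 30, Msmo1, was called without R98S clone 11, without R98S clone 13 or without WT clone 36, and 10 were called without R98S clone 35, where Acat2, Cyp51, Insig1 and Mvd were added. The mRNA calls over all genes, 787 (443 lower) with every clone, were 343 (213 lower) without R98S clone 11 and 315 (182 lower) without R98S clone 13. They were 801 (424 lower) without R98S clone 35 and 360 (192 lower) without WT clone 36. In RPF, 3 of the 30 genes were called without R98S clone 11, 2 without R98S clone 13, 15 without R98S clone 35, where Acat2, Cyp51, Ebp, Fads2, Idi1, Insig1, Lss, Mvd and Nsdhl were added, 4 without WT clone 28 and 4 without WT clone 36. The RPF calls over all genes, 743 (443 lower) with every clone, were 272 (197 lower) without R98S clone 11 and 229 (164 lower) without R98S clone 13. They were 1148 (642 lower) without R98S clone 35, 379 (228 lower) without WT clone 28 and 356 (231 lower) without WT clone 36. In none of these fits was a gene of the 30 called higher in R98S. In mRNA, DESeq2 called 11 of the 30 lower, beside 692 of all 11344 genes, limma with estimated library weights 18, beside 1505, and edgeR 6, beside 440.0. In RPF, DESeq2 called 10 of the 30 lower, beside 626 of all 9580 genes, library weights 15, beside 917, and edgeR 6, beside 472. Genes called in either direction numbered 1283, 2959 and 805 in mRNA and 1095, 1799 and 808 in RPF, in the same order.

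**Figure D1:**
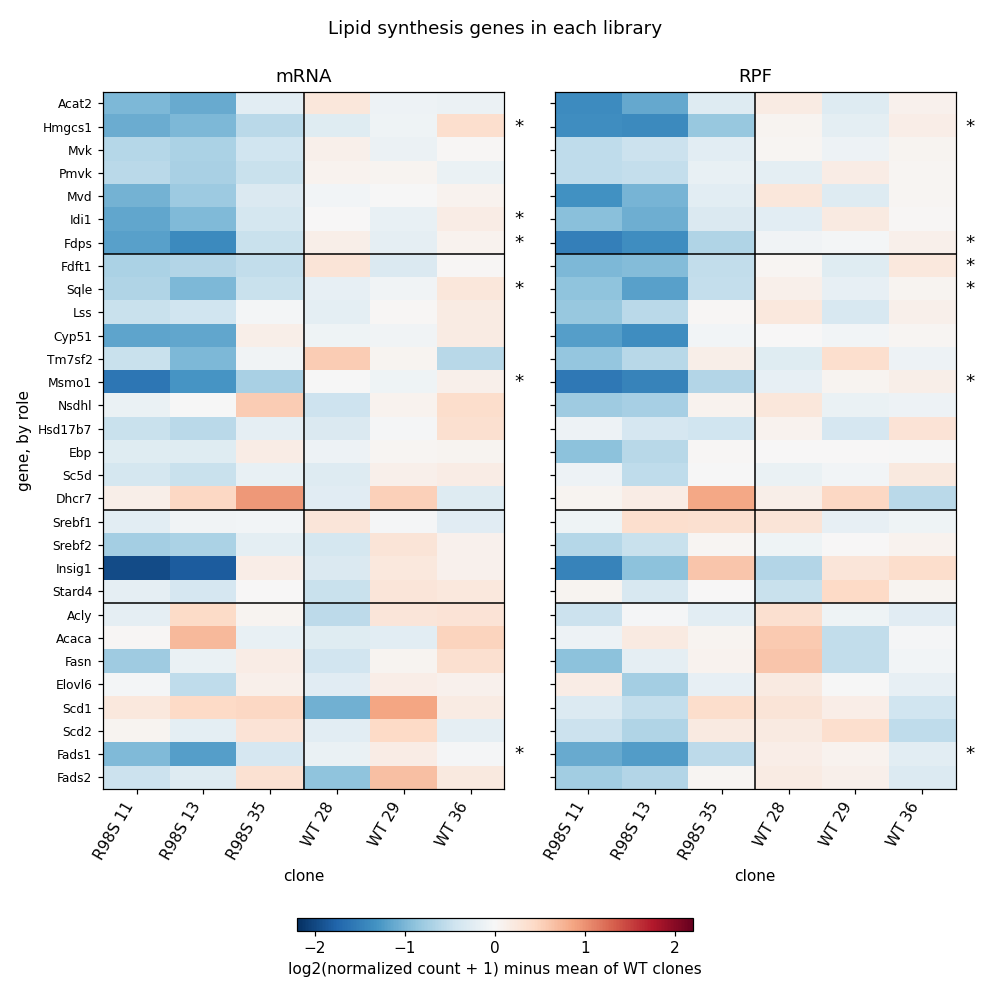
Level of each of the 30 genes in each clone as log2(normalized count + 1) minus the mean of the 3 WT clones, for mRNA and RPF, with genes in rows by role and clones in columns. Blue is below the WT mean and red above it, and a star marks a gene called lower in R98S in limma. The top rows, the mevalonate steps, are blue in all 3 R98S clones, and R98S clone 35 is paler than clones 11 and 13.

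All 7 genes of the mevalonate steps were below WT in both assays, limma called 3 lower in mRNA, beside 3.91% of all genes, and 2 in RPF, beside 4.62%, and the R98S clones were below all WT clones for 7 genes in mRNA, beside 11.6%, and for 5 in RPF, beside 12.8%, with medians of -0.78 and -0.87 on the log2 scale. Hmgcs1, which makes HMG-CoA at the head of the pathway, had 1324, 1422 and 1881 normalized counts for R98S clones 11, 13 and 35, against 2344, 2653 and 3638 for WT clones 28, 29 and 36 in mRNA. Its RPF were 471, 461 and 685 in the R98S clones and 1273, 1053 and 1347 in the WT clones. The genotypes did not overlap in either assay, and Hmgcs1 fell in limma, with log2 fold changes of -0.89 (SE 0.22, adjusted p = 0.0538) in mRNA and -1.20 (SE 0.20, adjusted p = 0.0127) in RPF. Fdps, the synthase of farnesyl diphosphate, had 707, 612 and 1158 in the R98S clones and 1762, 1405 and 1715 in the WT clones in mRNA. Its RPF were 364, 403 and 655 in the R98S clones and 982, 1009 and 1124 in the WT clones. Every R98S clone was below every WT clone in both assays, and Fdps fell in limma, with -1.03 (SE 0.25, adjusted p = 0.0525) in mRNA and -1.18 (SE 0.23, adjusted p = 0.0197) in RPF. Idi1, the isomerase that makes the allylic building block, had 1814, 2042 and 3039.8 in the R98S clones and 4009, 3569.7 and 4457 in the WT clones in mRNA, again without overlap, with -0.83 (SE 0.21, adjusted p = 0.0680) in limma. Its RPF were 122, 109 and 185 in the R98S clones and 198, 265 and 236 in the WT clones, without overlap, with -0.77 (SE 0.25, adjusted p = 0.111) in limma, so with all clones limma called Idi1 in mRNA only; its RPF were also called lower in DESeq2, with library weights, and in limma without R98S clone 35 (adjusted p = 0.0360). The difference between the assays is the test of the RPF to mRNA ratio given further on.

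The RPF calls of Hmgcs1 and Fdps held in all 6 fits that left out a clone, while the mRNA calls of the mevalonate genes did not. Hmgcs1 lost its mRNA call in limma without R98S clone 11 (adjusted p = 0.217), R98S clone 13 (0.199) or WT clone 36 (0.182). Fdps lost it without the same clones, with 0.198, 0.203 and 0.169, and Idi1 with 0.266, 0.242 and 0.210, each without R98S clone 11, R98S clone 13 and WT clone 36 in that order. Fdps shares 26.7% of its exon length with a predicted gene on the same strand, and how the authors counted reads in shared exons is not stated. Hmgcs1 shares 12.1% and Idi1 9.22% with a gene on the opposite strand, and the strand setting of the counts is not stated. The other 4 genes missed the threshold in limma with all clones, while DESeq2 called all 4 in mRNA and Acat2 and Mvd in RPF, and library weights called all 4 in mRNA and Acat2, Mvd and Pmvk in RPF. Mvd, which decarboxylates mevalonate diphosphate, had 402, 477 and 661 in the R98S clones and 789.5, 821 and 872 in the WT clones in mRNA, without overlap, with -0.72 (SE 0.22, adjusted p = 0.110) in limma and -0.87 (adjusted p = 0.116) in RPF. Acat2, which joins acetyl-CoA units, had -0.78 (adjusted p = 0.152) in mRNA and -0.93 (adjusted p = 0.112) in RPF. The kinases Mvk and Pmvk had -0.59 and -0.60 in mRNA and -0.42 and -0.42 in RPF.

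Of the 11 genes from squalene to cholesterol, limma called 2 lower in mRNA, beside 3.91% of all genes, and 3 in RPF, beside 4.62%; 9 and 10 were below 0, beside 48.6% and 48.8%, and the medians were -0.43 and -0.48. Msmo1, the methyl sterol oxidase that removes methyl groups from the sterol ring, had an RPF difference close to those of Hmgcs1 and Fdps. Its mRNA was 807, 979 and 1475 in the R98S clones and 2411, 2257 and 2613 in the WT clones. Its RPF were 462, 496 and 883 in the R98S clones and 1208, 1442 and 1498 in the WT clones. All R98S clones were below all WT clones, and Msmo1 fell in limma, with -1.20 (SE 0.23, adjusted p = 0.0197) in mRNA and -1.23 (SE 0.24, adjusted p = 0.0227) in RPF. Its mRNA call held whichever clone was left out, and its RPF call in limma was lost only without R98S clone 13 (adjusted p = 0.111). Sqle, the squalene epoxidase, had 1867, 1495 and 2109.7 in the R98S clones and 2613, 2813 and 3544 in the WT clones in mRNA. Its RPF were 744, 600.1 and 957 in the R98S clones and 1495, 1212 and 1446 in the WT clones. The genotypes did not overlap, and Sqle fell in limma, with -0.71 (SE 0.19, adjusted p = 0.0805) in mRNA and -0.87 (SE 0.20, adjusted p = 0.0416) in RPF. Its mRNA call was lost without R98S clone 11 (limma, adjusted p = 0.228), R98S clone 13 (0.295), WT clone 29 (0.126) or WT clone 36 (0.249), and its RPF call without R98S clone 11 (0.135), R98S clone 13 (0.183), WT clone 28 (0.112) or WT clone 36 (0.125). With no filter on low values Sqle was also not called in mRNA.

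Fdft1, which makes squalene, was called in RPF only in limma with all clones. Its RPF were 205, 210.4 and 280.4 in the R98S clones and 418, 340.4 and 477 in the WT clones, without overlap, and fell in limma, with -0.83 (SE 0.21, adjusted p = 0.0559). Its mRNA was 484, 499 and 536 in the R98S clones and 959, 632 and 793 in the WT clones, also without overlap, with -0.63 (SE 0.20, adjusted p = 0.134) in limma. The mRNA of Fdft1 was called in DESeq2, with library weights, without WT clone 29 and with chromosome medians removed. Fdft1 shares 18.3% of its exon length with Ctsb on the opposite strand, and the strand setting of the counts is not stated. The RPF call was lost without R98S clone 11 (limma, adjusted p = 0.195), R98S clone 13 (0.214), WT clone 28 (0.131) or WT clone 36 (0.177).

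Cyp51, the demethylase of lanosterol, split the R98S clones in both assays. Its mRNA was 977, 983 and 2376 in the R98S clones and 2033, 2061 and 2464 in the WT clones, so clones 11 and 13 were below all WT clones and clone 35 lay among them, with -0.73 (SE 0.32, adjusted p = 0.269) in limma. Its RPF were 553, 497 and 1234 in the R98S clones and 1293, 1241 and 1326 in the WT clones, with -0.88 (SE 0.30, adjusted p = 0.126) in limma. In RPF all R98S clones were below all WT clones, and Cyp51 was called lower in DESeq2 (adjusted p = 0.0952), with library weights (0.0147) and in limma without R98S clone 35 (0.00540). In mRNA it was called with library weights (0.0146) and without R98S clone 35 (0.0171). Dhcr7, which reduces the ring in the last step of a main branch, had fold changes above 0. Its mRNA was 515, 645 and 916 in the R98S clones and 397, 680.5 and 386 in the WT clones, with the genotypes overlapping, and its RPF were 545, 587 and 940.4 in the R98S clones and 576, 716 and 348 in the WT clones. Its fold changes in limma were 0.51 (SE 0.29, adjusted p = 0.395) in mRNA and 0.35 (SE 0.29, adjusted p = 0.525) in RPF, so it was not called there. Across settings the values of Dhcr7 ran from 0.29 to 0.78 in mRNA and from 0.060 to 0.58 in RPF. The remaining genes of these steps, Lss, Tm7sf2, Nsdhl, Hsd17b7, Ebp and Sc5d, ranged from -0.52 for the sterol reductase Tm7sf2 to 0.13 for the dehydrogenase Nsdhl in mRNA, and from -0.50 for the isomerase Ebp to -0.23 for the desaturase Sc5d in RPF, and none was called in limma with all clones weighted alike. With library weights, Lss, Hsd17b7 and Sc5d were called lower in mRNA (adjusted p = 0.0369, 0.0193 and 0.0360) and Lss and Ebp in RPF (0.0656 and 0.0679). Without R98S clone 35, limma called Lss, Ebp and Nsdhl lower in RPF (0.0974, 0.0568 and 0.0670). The mRNA fold change of Nsdhl was -0.27 with library weights, -0.085 without R98S clone 35 and -0.10 without WT clone 28. Tm7sf2 shares exons with a neighbour on the same strand, and how such reads were counted is not stated.

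**Figure D2:**
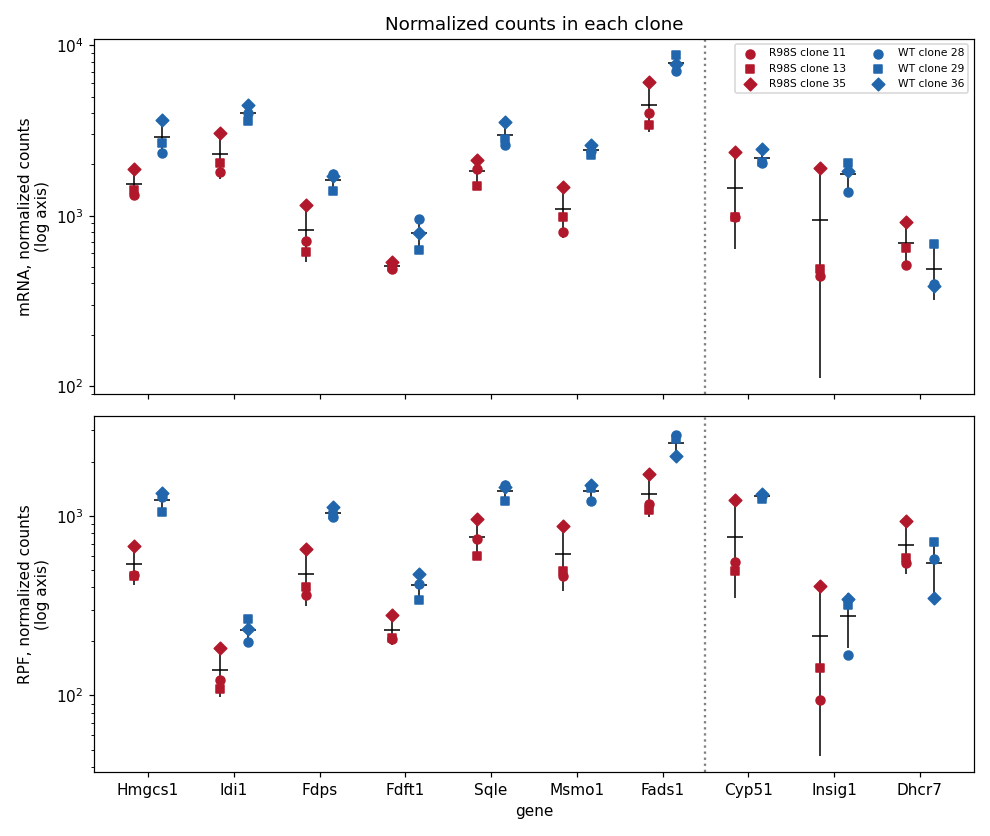
Normalized counts in each clone, on a log axis, for the 7 genes called lower in R98S in mRNA or RPF in limma, and, right of the dotted line, for Cyp51, Insig1 and Dhcr7, which were not called in limma with all clones. Each point is 1 clone, and bars give the mean and SD of 3 clones. R98S clone 35 is the highest R98S point for each gene shown, and for Cyp51 and Insig1 it lies among the WT points in mRNA.

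None of the 4 regulators and carriers was called in either assay in limma with all clones weighted alike. There 2 had an unadjusted p under 0.05 in mRNA, beside 2036 of all 11344 genes, and 0 in RPF, beside 1943 of 9580. DESeq2 and edgeR called 0 of the 4 as well, while limma with library weights called Insig1 (adjusted p = 0.0106 in mRNA and 0.0919 in RPF) and Srebf2 (0.00959 and 0.0845) lower in both assays. Insig1, which holds the SREBP complex in the endoplasmic reticulum and is itself an SREBP target, had the largest SE of the 30 genes in mRNA. Its mRNA was 443, 485 and 1908 in the R98S clones and 1380.3, 2036 and 1838 in the WT clones. Its RPF were 94.7, 142 and 406 in the R98S clones and 169, 319.6 and 345 in the WT clones. Clones 11 and 13 were below every WT clone in both assays and clone 35 was not, and the limma fold changes were -1.22 (SE 0.48, adjusted p = 0.213) in mRNA and -0.59 (SE 0.46, adjusted p = 0.512) in RPF. Without R98S clone 35 Insig1 was called in both assays, with adjusted p = 0.00476 in mRNA and 0.0639 in RPF. Srebf2, the SREBP that mainly drives the sterol genes, had 3569.9, 3700.1 and 5173 in the R98S clones and 4611, 7292 and 6431 in the WT clones in mRNA, with -0.55 (SE 0.22, adjusted p = 0.225) in limma and -0.36 (adjusted p = 0.348) in RPF, and its mRNA was called without WT clone 28 (adjusted p = 0.0661). Srebf1, the SREBP tied more to fatty acid genes, had -0.12 in mRNA and 0.21 in RPF, and its mRNA fold change was 0.014 without WT clone 28. Stard4, a carrier of cholesterol between membranes, had -0.18 and -0.090; its RPF value was 0.039 without R98S clone 13, 0.13 without WT clone 29, 0.038 with chromosome medians removed and 0.020 with total count scaling.

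Of the 8 fatty acid genes, in mRNA 4 were above 0 and 4 below, with a median of -0.05. In RPF 7 were below 0, beside 48.8% of all genes, with a median of -0.28. Limma called 1 gene lower in each assay, beside 3.91% of all genes in mRNA and 4.62% in RPF, and it was the same gene. Fads1, the desaturase that makes arachidonic acid, had 4008, 3385 and 6054 in the R98S clones and 7095, 8762 and 7726 in the WT clones in mRNA. Its RPF were 1174, 1085 and 1709 in the R98S clones and 2834, 2701 and 2158 in the WT clones. No R98S clone reached the lowest WT clone, and Fads1 fell in limma, with -0.85 (SE 0.22, adjusted p = 0.0750) in mRNA and -0.97 (SE 0.21, adjusted p = 0.0313) in RPF. Its mRNA call was lost without R98S clone 11 (limma, adjusted p = 0.255), R98S clone 13 (0.274), WT clone 29 (0.162) or WT clone 36 (0.183), and its RPF call without R98S clone 11 (0.126) or R98S clone 13 (0.153). Its neighbour Fads2, the desaturase that acts before it, had 1588, 1813 and 2776 in the R98S clones and 1192, 3519 and 2581 in the WT clones in mRNA, with overlap, and fold changes of -0.15 in mRNA and -0.46 in RPF.

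Fasn, the fatty acid synthase, had 2855, 4419 and 5457 in the R98S clones and 3663, 5096 and 6275 in the WT clones in mRNA. Its RPF were 3781, 6162 and 7459 in the R98S clones and 10850.3, 4859 and 6768 in the WT clones. WT clone 28 was the highest of all clones in RPF and below the other WT clones in mRNA, and the fold changes were -0.26 (SE 0.27, adjusted p = 0.680) in mRNA and -0.35 (SE 0.32, adjusted p = 0.582) in RPF in limma. Without WT clone 28 the values of Fasn were -0.46 and -0.039. Acly, which makes cytosolic acetyl-CoA from citrate, had 0.096 and -0.24 (-0.066 in RPF without WT clone 28), and Acaca, which makes malonyl-CoA, had 0.19 and 0.047. Elovl6, an elongase of long chains, had -0.16 and -0.26. The stearoyl-CoA desaturases Scd1 and Scd2 had 0.38 and 0.046 in mRNA and -0.15 and -0.31 in RPF. None of these was called in limma with all clones, DESeq2 or edgeR; with library weights Fasn was called lower in mRNA (-0.73, adjusted p = 0.0481). The direction of several small values turned with the clones used. In mRNA, Acly was -0.069 without R98S clone 13 and -0.19 without WT clone 28, Acaca was -0.070 without R98S clone 13, Scd1 was -0.15 without WT clone 28, and Fads2 was 0.020 without R98S clone 11 and 0.19 without WT clone 29. Scd2 in mRNA was -0.083 without R98S clone 35, -0.074 without WT clone 28 and -0.056 without WT clone 36, Fasn was 0.0053 without R98S clone 11, and Elovl6 was 0.034 without R98S clone 13. In RPF, Acaca was -0.025 without R98S clone 13 and -0.22 without WT clone 29, and Scd1 was 0.041 without R98S clone 13.

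The R98S clones did not behave alike. Among the 18 enzymes of sterol synthesis, clone 35 had the highest mRNA level of the 3 R98S clones for 18, beside 37.5% of all genes tested, and the highest RPF level for 17, beside 37.3%. Relative to the WT mean, the median log2 difference of these enzymes was -0.65, -0.75 and -0.28 in mRNA for clones 11, 13 and 35, and -0.90, -0.84 and -0.24 in RPF. Clones 11 and 13 were both below all WT clones for 15 of the 18 enzymes in mRNA and for 15 in RPF, beside 18.7% and 20.8% of all genes. Clone 35 was below all WT clones for 10 of the 18 in each assay, beside 23.9% of all genes in mRNA and 26.8% in RPF. Over all genes tested, the median distance from the WT mean was 0.0087, 0.018 and 0.011 in mRNA for the R98S clones. Summed over the 18 enzymes, mRNA was 13011, 13194 and 19645 normalized counts in the R98S clones and 22519.6, 22661 and 26717.5 in the WT clones, with no overlap.

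**Figure D3:**
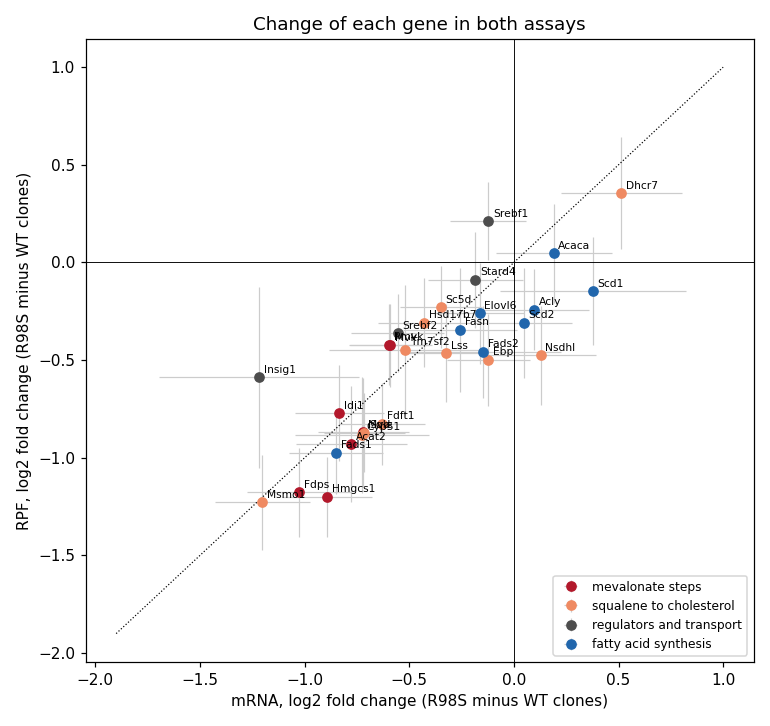
Log2 fold change of R98S minus WT clones in RPF against that in mRNA, 1 point for each of the 30 genes, colored by role, with bars of 1 SE on each axis; the dotted line marks equal change. Most sterol enzymes lie in the lower left near the line, Dhcr7 is at the upper right, and Insig1 lies above the line at the left.

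The mRNA and RPF fold changes had the same sign for 25 of the 30 genes and for 17 of the 18 sterol enzymes. Across genes their Pearson correlation was 0.824 over the 30 and 0.875 over the 18, a description over genes that share the same 6 clones. The 5 genes with unlike signs were Nsdhl, Srebf1, Acly, Scd1 and Scd2, each with a difference that was not called in either assay in limma with all clones.

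Translation efficiency (TE), the ratio of RPF to mRNA within a clone, asks whether footprints changed beyond mRNA. It was tested in limma as log2(RPF + 1) minus log2(mRNA + 1) for the 9043 genes that reached 10 normalized counts in each of the 12 libraries, all 30 lipid genes among them, with the libraries paired by clone. No lipid gene was called: 0 were higher, beside 0% of all genes, and 0 lower, beside 0.0221%, which is 2 genes. Over all genes, 0 were called without R98S clone 11, R98S clone 13, R98S clone 35 or WT clone 29, and 3 without WT clone 28 or WT clone 36. In limma, 1 of the 30, Insig1, had an unadjusted p under 0.05, beside 710 of all 9043 genes. The interaction in DESeq2 called 0 of the 30, limma with library weights called Insig1 higher, beside 796 of all 9043 genes (416 higher), and with no replicate block limma called 0 of the 30 and 3 genes in all. All R98S ratios were above all WT ratios for 2 genes, Mvk and Insig1, beside 7.45% of all genes, and below for 2, Hmgcs1 and Ebp, beside 7.36%. The median of the 30 was -0.14, the same with no replicate block, beside -0.0014 over all genes, and it was 0.028 without WT clone 28, -0.073 without R98S clone 11 and -0.0046 with library weights.

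Insig1 had RPF to mRNA ratios of 0.215, 0.294 and 0.213 in the R98S clones and 0.123, 0.157 and 0.188 in the WT clones, with 0.63 (SE 0.23, adjusted p = 0.629) in limma. The 3 R98S ratios were the highest, but the difference was not called in limma with all clones weighted alike. Hmgcs1 had ratios of 0.356, 0.325 and 0.365 in the R98S clones and 0.543, 0.397 and 0.370 in the WT clones, with -0.31 (SE 0.20, adjusted p = 0.691) in limma. Nsdhl had -0.60 (SE 0.29, adjusted p = 0.635). The ratios of Nsdhl were 0.351, 0.330 and 0.392 in the R98S clones and 0.891, 0.463 and 0.385 in the WT clones, and without WT clone 28 its value was -0.24. For Idi1, called by limma with all clones in mRNA only, the limma value was 0.061 (SE 0.27, adjusted p = 0.959), and for Fdft1, called by limma with all clones in RPF only, it was -0.20 (SE 0.20, adjusted p = 0.774), so neither passed the test of a difference between the assays. The value of Idi1 was -0.020 without R98S clone 11, -0.054 without WT clone 28 and -0.0036 without WT clone 36.

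By role, all 8 fatty acid genes had a TE difference below 0 (median -0.23), beside 50.2% of all genes. All 4 regulators and carriers were above 0 (median 0.26), beside 4502 of all 9043 genes. The mevalonate and later sterol genes had medians of -0.15 and -0.16. For 7 of the 8 fatty acid genes the direction rested on WT clone 28. Fasn had ratios of 1.32, 1.39 and 1.37 in the R98S clones and 2.96, 0.954 and 1.08 in the WT clones, so clone 28 alone exceeded the R98S clones. Without that clone its TE fold change was 0.42, in place of -0.090. Acly, Acaca, Elovl6, Scd1, Fads1 and Fads2 also turned positive without it, at 0.13, 0.27, 0.12, 0.14, 0.023 and 0.22, while Scd2 stayed below 0, at -0.14 in place of -0.35. Acaca was 0.044 without R98S clone 13 and Elovl6 0.0049 without R98S clone 35. Among the sterol enzymes, small values turned sign for Mvd (0.0098), Lss (0.088), Dhcr7 (0.032) and Tm7sf2 (-0.34) without WT clone 28. Msmo1 turned to 0.043 without R98S clone 13 and 0.058 without WT clone 29, Hsd17b7 to -0.010 without R98S clone 11 and -0.058 without WT clone 29, and Tm7sf2 to -0.076 without R98S clone 13.

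**Figure D4:**
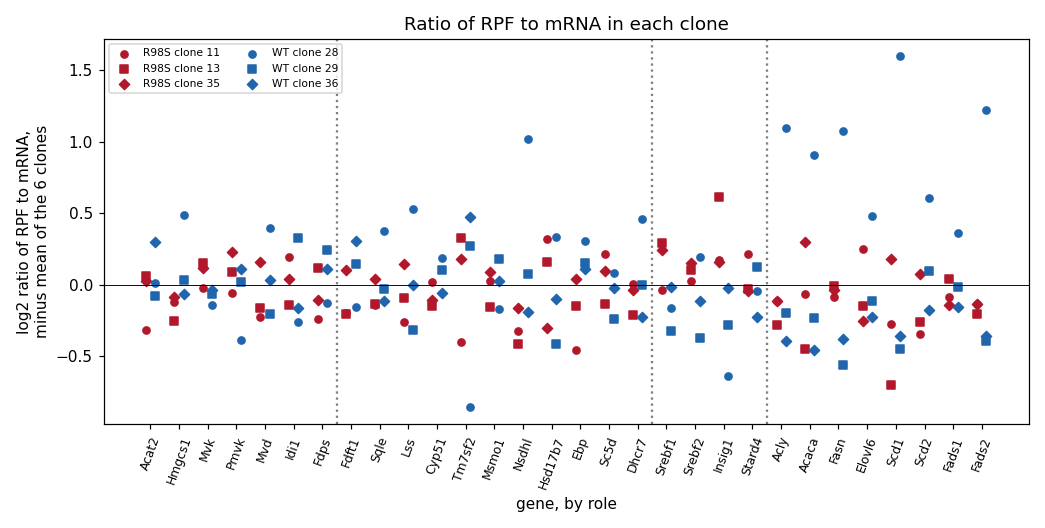
Log2 ratio of RPF to mRNA in each clone, minus the mean of the 6 clones, for the 30 genes by role, with 1 point for each clone. WT clone 28 lies above the other clones for the fatty acid genes at the right, and its mRNA library was the shallowest.

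Levels between genes were compared per kilobase (kb), with the main transcript's length for mRNA and the counted part of the coding sequence for RPF. In WT mRNA, Scd2 was highest at 3141 ± 891 normalized counts per kb (SD, n = 3), then Fads1 at 2272 ± 243, and Idi1, Srebf2, Msmo1 and Fdps followed at 1325, 1204, 1187 and 1177, whose ranges of mean ± SD overlap. Scd1 was lowest at 18.8 ± 11.0 per kb, so the 30 genes spanned a range of 167-fold. The median gene of the 10381 with a length had 228 per kb, and 23 of the 30 genes were above it, 3 of them above the 90th percentile. In R98S mRNA the order was much the same (Spearman correlation across genes 0.953). Among the genes that moved, Msmo1 went from place 5 to 10, Fdps from 6 to 9 and Acly from 7 to 3. Lower in the order, Dhcr7 went from 27 to 22, Insig1 from 12 to 16, Mvd from 16 to 20, Nsdhl from 18 to 14 and Srebf1 from 17 to 13. In R98S mRNA Msmo1 had 532 ± 170.0 per kb and Fdps 597 ± 211.

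In WT RPF, Scd2 was again highest at 3641 ± 1112 normalized counts per kb (SD, n = 3), followed by Fads1 at 2002 ± 279, Fads2 at 1876 ± 315 and Msmo1 at 1689 ± 188, and Tm7sf2 was lowest at 50.8 ± 12.1. Of the 30 genes, 27 were above the median of 178 per kb over 9293 genes. Relative to the median gene of 9221, the ratio of RPF per kb to mRNA per kb in WT was above it for 25 of the 30 genes, with a median of 0.60 on the log2 scale. Idi1 was lowest at -1.62 ± 0.35, at percentile 6.99 of all genes, and Dhcr7 (1.76 ± 0.29) and Ebp (1.62 ± 0.04) were among the highest. The ratio was higher still for Fads2 (1.95 ± 0.86), where WT clone 28 had 2.95 and WT clones 29 and 36 had 1.43 and 1.48, and for Scd1 (4.48 ± 1.11), where WT clone 28 had 5.76 and WT clones 29 and 36 had 3.78 and 3.89, a gene close in sequence to Scd2.

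**Figure D5:**
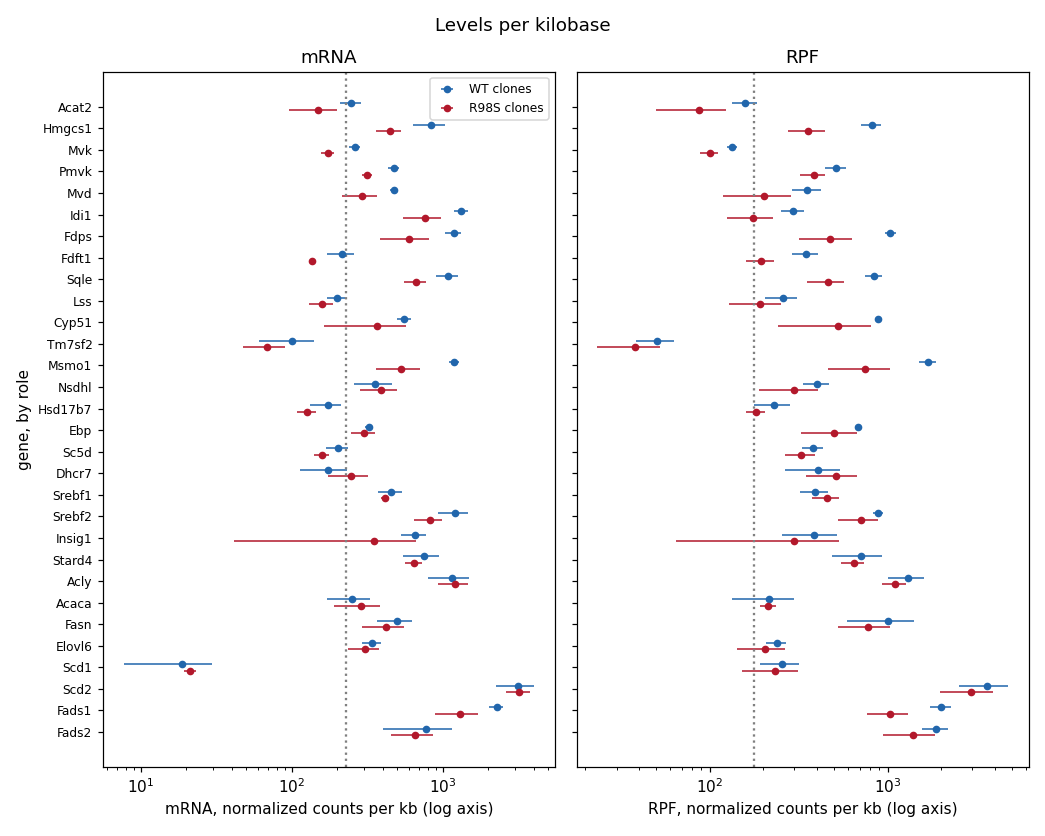
Normalized counts per kb of transcript (mRNA) and of counted coding sequence (RPF), on log axes, as the mean and SD of 3 clones for each genotype, with genes by role. The dotted line is the median gene in WT (228 for mRNA and 178 for RPF). Scd2 is at the far right in both panels, and Scd1 is far left in mRNA alone.

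Genes of a chromosome can shift together in a clone, so each chromosome's median was read. Chromosome 3, with Fdps, Pmvk and Elovl6, had a median difference of -0.27 in mRNA and -0.29 in RPF between R98S and WT clones, and chromosome 8, with Msmo1 and Mvd, had -0.21 and -0.19. Chromosome X, with Ebp and Nsdhl, had -0.076 and -0.19. In the other direction, chromosome 1, with Hsd17b7, had 0.20 and 0.17, chromosome 14, with Fdft1, had 0.19 and 0.17, and chromosome 7, with Dhcr7, had 0.18 and 0.19. The shifts were not alike in the 3 R98S clones. In mRNA, chromosome 14 was at 0.24, 0.17 and -0.085 in R98S clones 11, 13 and 35, chromosome 1 at 0.20, 0.20 and -0.079, and chromosome 3 at 0.094, -0.30 and -0.19. Chromosome 11, with Acaca, Acly, Fasn and Srebf1, was at -0.067, 0.27 and -0.028. With chromosome medians removed from each library, the mRNA value of Fdps in limma was -0.76 (adjusted p = 0.173) and that of Fdft1 was -0.82 (adjusted p = 0.0856), so in mRNA Fdps was no longer called and Fdft1 was; the other 5 mRNA calls and all 6 RPF calls held. Pmvk, on chromosome 3, went from -0.60 to -0.33 in mRNA and from -0.42 to -0.13 in RPF. What moved these chromosomes was not tested.

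Genes around these pathways were read from 3 further lists. Of 15 genes of isoprenoid branches, 13 were tested and 0 were called in mRNA, RPF or TE in limma. There 1 in mRNA, 0 in RPF and 2 in TE had an unadjusted p under 0.05. Over all genes these were 2036 of 11344, 1943 of 9580 and 710 of 9043. For the 13 genes, DESeq2 called 0 in all 3 and edgeR 0 in mRNA and RPF, and the medians were -0.08, 0.05 and 0.05. Of 25 genes that sense or move sterols, 22 were tested in RPF, where limma called 2 lower (9.09%, beside 4.62% of all genes). Abcg1, an exporter of sterol, had 705, 1024 and 841 in the R98S clones and 1355, 1556 and 1301 in the WT clones in RPF and fell in limma, with -0.72 (SE 0.19, adjusted p = 0.0592), and Lipa, the lysosomal lipase, fell, with -0.90 (SE 0.25, adjusted p = 0.0758). The RPF call of Abcg1 was lost without R98S clone 11 (0.224), WT clone 28 (0.115), WT clone 29 (0.121) or WT clone 36 (0.120), and that of Lipa without R98S clone 11 (0.209), R98S clone 13 (0.254), WT clone 28 (0.172) or WT clone 29 (0.166). Both were also lost with total count scaling.

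Of 31 further genes of fatty acid and glycerolipid metabolism, 24 were tested in mRNA, with 1 called higher in limma (4.17%, beside 3.03% of all genes) and 2 lower (8.33%, beside 3.91%), and 21 in RPF, with 1 higher (4.76%, beside 3.13%) and 4 lower (19.0%, beside 4.62%). Acss2, which makes acetyl-CoA from acetate, went the other way from the sterol enzymes. Its mRNA was 852, 1088 and 1219 in the R98S clones and 368, 652 and 400.4 in the WT clones and its RPF were 415, 572 and 667 in the R98S clones and 284, 374 and 256 in the WT clones. It rose in limma, with 1.18 (SE 0.25, adjusted p = 0.0343) in mRNA, without overlap, and 0.85 (SE 0.23, adjusted p = 0.0673) in RPF. Its mRNA call was lost without R98S clone 13 (0.140) or WT clone 36 (0.133), and its RPF call without R98S clone 13 (0.237), R98S clone 35 (0.114), WT clone 28 (0.154) or WT clone 36 (0.191). Tecr, the reductase that ends each elongation cycle, had 1092, 969.7 and 1298 in the R98S clones and 2546, 1980.2 and 2029 in the WT clones in RPF. It fell in limma, with -0.70 (SE 0.19, adjusted p = 0.0861) in mRNA and -0.96 (SE 0.19, adjusted p = 0.0197) in RPF. Its mRNA call was lost without R98S clone 11 (0.217), R98S clone 13 (0.296), WT clone 28 (0.108), WT clone 29 (0.167) or WT clone 36 (0.169), with chromosome medians removed and with no filter, and its RPF call without R98S clone 13 (0.101).

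The other genes of this list that limma called were Acsl1, Acsl3 and Acsl4, which activate fatty acids. Acsl1 had 725, 912 and 1063 in the R98S clones and 1566, 1524 and 1824 in the WT clones in mRNA and fell in limma, with -0.88 (SE 0.19, adjusted p = 0.0366) in mRNA and -0.83 (SE 0.18, adjusted p = 0.0335) in RPF. Acsl4 had 779, 727 and 846 in the R98S clones and 1499.8, 1374 and 1290.1 in the WT clones in RPF and fell there, with -0.82 (SE 0.16, adjusted p = 0.0228), and Acsl3 fell in RPF, with -0.68 (SE 0.20, adjusted p = 0.0891), both in limma. Acsl1 lost its mRNA call without R98S clone 11 (0.177), R98S clone 13 (0.127) or WT clone 36 (0.147), and its RPF call without R98S clone 11 (0.139), R98S clone 13 (0.111), WT clone 28 (0.101) or WT clone 36 (0.101). Acsl4 lost its RPF call without R98S clone 13 (0.111), and Acsl3 without R98S clone 11 (0.267), R98S clone 13 (0.262), WT clone 28 (0.134), WT clone 29 (0.190) or WT clone 36 (0.139), and with total count scaling. In TE, limma called 0 genes of the 3 lists, and the interaction in DESeq2 called 0 as well. In limma 2, 2 and 0 genes of these lists had an unadjusted p under 0.05, beside 710 of all 9043 genes.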

How the data were processed

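Ribosome footprints and mRNA were sequenced from 6 Ba/F3 clones, 3 with RPL10 R98S and 3 with WT, giving 12 libraries. The authors used Bowtie2 to take out reads of rRNA and tRNA, mapped the others with TopHat2 2.0.11 on mm10, filtered them with SAMtools, and counted reads per gene symbol, for RPF over coding sequence without the first 15 and last 5 codons. The deposited values are signal values: read numbers per gene after division by the size factor that DESeq2 gave the library. The counting program, annotation and strand setting are not stated. Dividing by the smallest value of a library gave whole numbers for 100% of its values (tolerance 1e-06), so reads were recovered. Of the mRNA genes, 19995 were at 0 throughout, and of the RPF genes none had fewer than 1 read in any library.

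R98S was compared with WT with limma 3.58.1, run in R 4.3.3, after adding 1 and taking log2, and with a variance trend, for genes with a mean of at least 10, with Benjamini-Hochberg adjustment over all genes tested and a threshold of 0.1. TE was tested on clone-wise log2 ratios. Libraries were paired by the clone number that both labels carry. As a check, mRNA and RPF were taken as deviations from the mean of the 3 clones of the same genotype. Their Pearson correlations over 9043 genes were 0.609, 0.656 and 0.642 for R98S clones 11, 13 and 35. They were 0.218, 0.681 and 0.311 for WT clones 28, 29 and 36. Without this pairing, limma called 3 genes in TE and 0 of the 30. The 2 tables were normalized separately, so RPF to mRNA ratios have no absolute scale.

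Alternatives were a pseudocount of 5, other filters, DESeq2 1.42.0 and edgeR 4.0.16 on recovered reads, library weights, removal of chromosome medians, total count scaling, and each clone left out. Lengths and positions came from GENCODE M21, and promoters from RefSeq. The genes and lists were chosen with earlier results of these data known. Results for 2 genes of these lists are not reported here. Figures and tables were made with Python 3.11.15, pandas 2.3.3 and matplotlib 3.10.9, and the code was tested on simulated data.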

Additional observations from a re-analysis of the deposited data

How the results depend on the processing

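The shallowest libraries of each kind are the mRNA of WT clone 28 and the RPF of R98S clone 35. What depth did to the results was not tested. The Msmo1 mRNA call and the Hmgcs1 and Fdps RPF calls were kept when any clone was left out, and no gene of the 30 that limma called in mRNA or RPF changed direction in that assay under any setting. Of the alternative fold changes of the 30 genes, 358 of 420 in mRNA, 376 of 420 in RPF and 299 of 330 in TE kept both direction and side of the threshold. Total count scaling, added after the data were seen, moved the median of all genes in RPF from 0.014 to 0.12 on the log2 scale, and the 30 genes then had an RPF median of -0.34. Under it 448 RPF genes were called higher and 317 lower (58.6% higher), in place of 300 and 443 (40.4% higher). With no replicate block, no call of the 30 changed. Settings whose value moved are given next. Where a clone was left out there were fewer samples, and otherwise the cause was not tested.

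In mRNA, DESeq2 called 1283 genes and 11 of the 30, and limma with library weights 2959 and 18, in place of 787 and 6. In RPF, DESeq2 called 10 of the 30, and library weights called 1799 genes and 15 of the 30, in place of 743 and 6. In TE, DESeq2 called 6 genes, and library weights called 796 genes and 1 of the 30, higher, in place of 2 and 0. With 1 clone left out at a time, the genes called ranged from 315 to 1113 in mRNA, from 229 to 1148 in RPF and from 0 to 3 in TE. Of the 30, those called lower ranged from 1 to 10 in mRNA and from 2 to 15 in RPF, and the median TE value ranged from -0.18 to 0.028.

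In mRNA, these log2 fold changes took the other direction in some setting. With library weights, Nsdhl was -0.27, Acly -0.25 and Acaca -0.14. With chromosome medians removed, Acly was -0.0048 and Elovl6 0.10. Left-out clones gave mRNA ranges for Nsdhl from -0.10 to 0.32, Srebf1 from -0.25 to 0.014, Acly from -0.19 to 0.25, Acaca from -0.070 to 0.44 and Fasn from -0.46 to 0.0053. They gave ranges for Elovl6 from -0.30 to 0.034, Scd1 from -0.15 to 0.81, Scd2 from -0.083 to 0.27 and Fads2 from -0.59 to 0.19.

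In RPF, these log2 fold changes took the other direction in some setting. With chromosome medians removed, Stard4 was 0.038, Acaca -0.078 and Elovl6 0.032. With total count scaling, Stard4 was 0.020. In DESeq2, Acaca was -0.020. In edgeR, Acaca was -0.015. Left-out clones gave RPF ranges for Stard4 from -0.34 to 0.13, Acaca from -0.22 to 0.33 and Scd1 from -0.41 to 0.041.

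In TE, these log2 fold changes took the other direction in some setting. With library weights, Mvd was 0.0031, Idi1 -0.18, Lss 0.099, Tm7sf2 -0.27, Acly 0.0058, Acaca 0.077, Fasn 0.41, Elovl6 0.11 and Fads2 0.17. Left-out clones gave TE ranges for Mvd from -0.29 to 0.0098, Idi1 from -0.054 to 0.24, Lss from -0.33 to 0.088, Tm7sf2 from -0.34 to 0.33, Msmo1 from -0.12 to 0.058, Hsd17b7 from -0.058 to 0.32 and Dhcr7 from -0.31 to 0.032. They gave ranges for Acly from -0.62 to 0.13, Acaca from -0.41 to 0.27, Fasn from -0.39 to 0.42, Elovl6 from -0.25 to 0.12, Scd1 from -0.88 to 0.14, Fads1 from -0.23 to 0.023 and Fads2 from -0.59 to 0.22.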
